A study of Bos taurus with 5 samples.

Results

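Of the 9022 genes in the deposited table of bovine muscle, 1433 carried an identifier in place of a gene symbol, and 4 of these, all on chromosome 2, were among the most abundant transcripts of the tissue. They are the genes ENSBTAG00000054051, ENSBTAG00000052033, ENSBTAG00000053974 and ENSBTAG00000052709. They were chosen by level: the listed transcript values were summed per gene, and genes without a symbol on chromosome 2 were kept when their mean over the libraries was at least 1000 FPKM (sequenced fragments per unit of transcript length and of library size). Chromosome 2 held 444 genes of the table, 76 of them without a symbol. RNA had been sequenced from longissimus dorsi, a long back muscle, of 5 Jiaxian Red cattle aged 18 months. All 5 libraries, 1 per animal, formed a single untreated group, so no condition was compared. No counts were given, and read depth is unknown. Library 4 stood apart in the sum of the mitochondrially encoded genes, at 34265 FPKM against 21094 to 23374 FPKM in the other 4 libraries, and values without it are given where it moves a result. What differs between libraries may be a property of the animal, of the dissection or of the library, and these cannot be told apart with 1 library per animal.

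In a RefSeq gene table of the assembly ARS-UCD2.0, all 4 loci fell inside the interval of TTN, which encodes titin. Titin is the giant elastic protein of striated muscle, and a single molecule runs from the Z-disc, where thin filaments are anchored, to the M-band, where thick filaments are cross-linked. It acts as a molecular spring, sets passive tension and provides binding sites along the sarcomere for many other proteins, and its transcript is spliced into isoforms of different length. The deposited table had 0 rows under the symbol TTN, and the 4 loci were the only genes of the table that overlapped its interval. The table gives them no description, so they are called by their identifiers here. The same RefSeq table places a long non-coding RNA, LOC112442546, over ENSBTAG00000052709 as well, and the sources used here give no strand for the libraries, so reads from overlapping genes cannot be told apart.

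The first 3 of the loci lay side by side and the other lay apart. In the coordinates of the deposited table, ENSBTAG00000054051 covered chromosome 2 from 18140240 to 18144502, ENSBTAG00000052033 from 18146853 to 18149670, and ENSBTAG00000053974 from 18150862 to 18155765. This cluster spanned 15.5 kb, with 2350 bases between its first and second locus and 1191 bases between its second and last. ENSBTAG00000052709 lay 178 kb beyond it, from 18333414 to 18335770. The intervals were short, at 4263, 2818, 4904 and 2357 bases in that order, and each gene had 1 listed transcript, so that its sum is the value of that transcript.

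ENSBTAG00000053974, the last locus of the cluster, was the most abundant of the 4. In libraries 1 to 5 its level was 8827, 10186, 7098, 5918 and 8414 FPKM, averaging 8089 ± 1639 (SD, n = 5). Library 2 was the highest and library 4 the lowest. Its rank among all genes was 2 in 4 libraries and 3 in library 4.

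ENSBTAG00000054051, the first locus of the cluster, had 6736, 8009.9, 5652, 4367 and 6584 FPKM in libraries 1 to 5, averaging 6269.7 ± 1355 (SD, n = 5). Library 2 was again the highest and library 4 the lowest. Its rank among all genes ran from 3 to 7.

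ENSBTAG00000052709, the distant locus, had 5972, 7353, 5255, 3996 and 6352 FPKM in libraries 1 to 5, averaging 5786 ± 1255 (SD, n = 5). ENSBTAG00000052033, between the other two of the cluster, had 5816, 6770.3, 4796, 3784 and 5777 FPKM in libraries 1 to 5, averaging 5389 ± 1137 (SD, n = 5). Both repeated the extremes of the first pair, with library 2 highest and library 4 lowest. Their ranks among all genes ran from 4 to 8 and from 5 to 9.

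**Figure D1:**
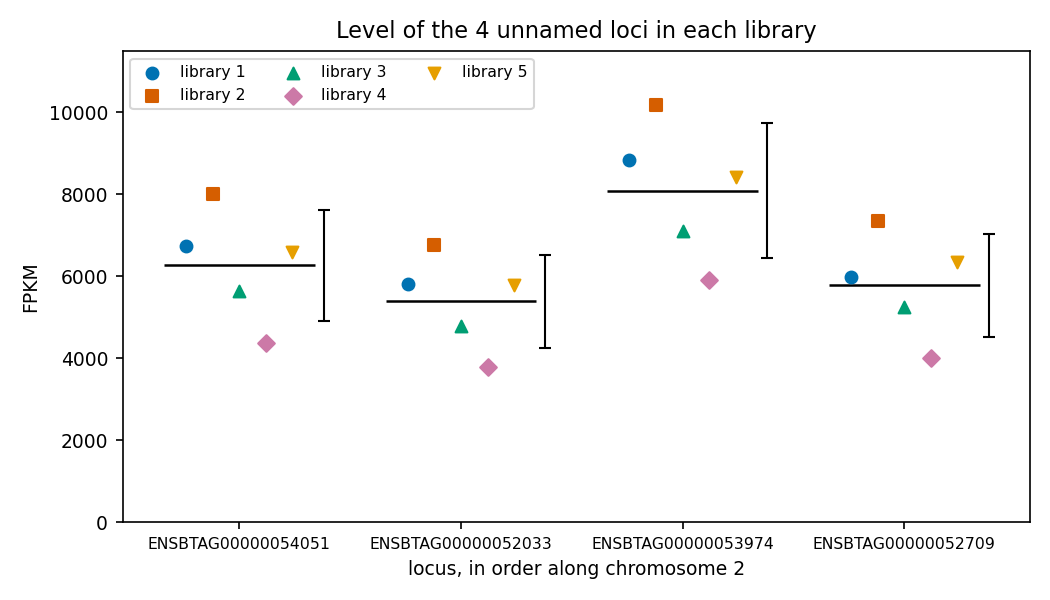
FPKM of the 4 loci (y axis) in order along chromosome 2 (x axis), with 1 point per library, a horizontal bar at the mean of the 5 libraries and the SD beside it. Library 2 is the highest point and library 4 the lowest at all 4 loci, and the mean runs from 5389 to 8089 FPKM.

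The threshold did not cut through a continuum. The lowest of the 4 means, 5389 FPKM, stood far above the next gene without a symbol on chromosome 2, ENSBTAG00000040602, at 96.9 ± 10.7 FPKM (SD, n = 5). The 2 genes after that were ENSBTAG00000040367 at 54.9 ± 47.3 FPKM and ENSBTAG00000050579 at 51.0 ± 11.8 FPKM. On any chromosome, the genes without a symbol nearest below 1000 FPKM were ENSBTAG00000039555 on chromosome 7, at 887 ± 221 FPKM, ENSBTAG00000022278 on chromosome X, at 548 ± 163, and ENSBTAG00000027629 on chromosome 27, at 420 ± 58.5. Of all 9022 genes 28 averaged 1000 FPKM or more (0.31%), as did 4 of the 1433 genes without a symbol (0.279%). These levels are what chose the loci, and they are given with no test.

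The neighbouring genes looked for on either side of the loci were expressed at far lower levels. Genes outside that preset list were not searched for. In the table's coordinates the nearest of the list before the cluster was CCDC141, a coiled-coil protein gene. It ended 120 kb before the cluster and averaged 1.35 ± 0.382 FPKM (SD, n = 5). The nearest on the other side was PLEKHA3, the gene of a lipid-binding adaptor of the Golgi. It began 53.2 kb after the distant locus and averaged 0.349 ± 0.0817 FPKM. Of 17 neighbouring genes looked for, 13 were listed, and the 9 with a mean of at least 1 FPKM (called detected below) ran from 1.35 FPKM to 21.99 FPKM. The highest was NFE2L2, the transcription factor gene of the antioxidant response, and the lowest of the 4 loci exceeded it 245-fold. The loci were chosen by level, so this gap is a description only.

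The other detected neighbours were SESTD1 (12.3 ± 2.03 FPKM), ZNF385B, a zinc finger gene (10.5 ± 4.88), PRKRA, which encodes an activator of the double-stranded RNA kinase (2.14 ± 0.194), and OSBPL6, an oxysterol-binding protein gene (10.05 ± 1.36). RBM45, an RNA-binding protein gene, averaged 8.45 ± 0.657 FPKM, AGPS, an enzyme gene of ether lipid synthesis, 17.9 ± 1.40, and HNRNPA3, another RNA-binding protein gene, 10.2 ± 1.66 (SD, n = 5).

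**Figure D2:**
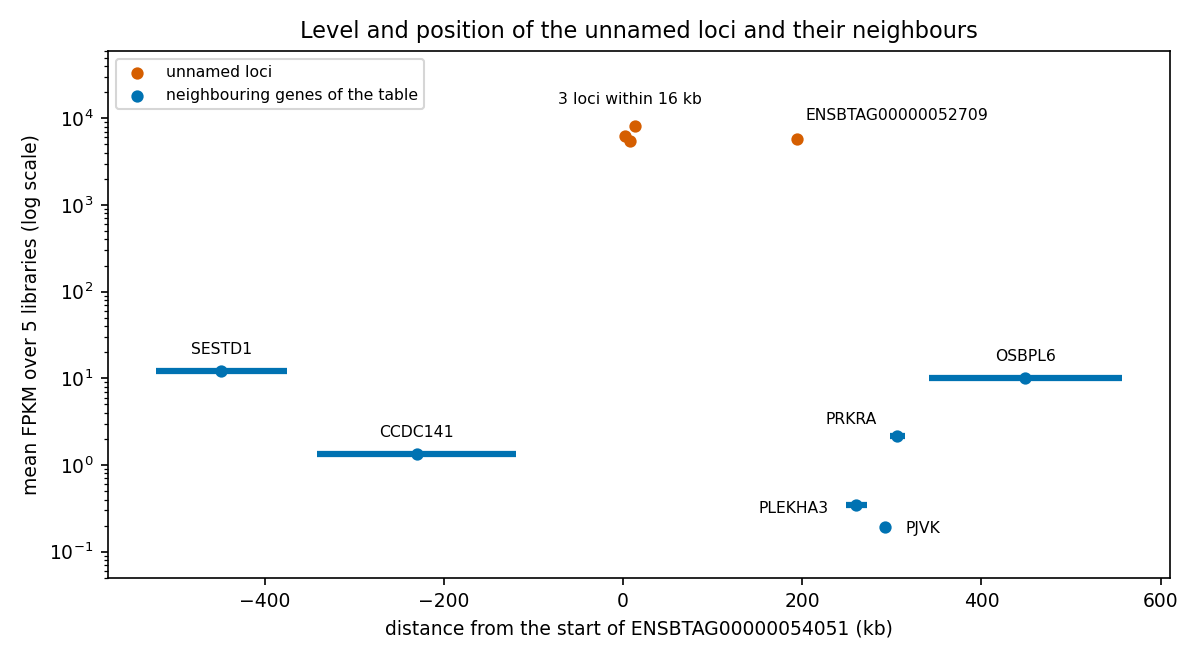
Mean FPKM over 5 libraries on a log scale (y axis) against distance along chromosome 2 in the table's own coordinates (x axis, kb), with each gene as a bar over its interval and a point at its middle. The 4 loci stand between 5389 and 8089 FPKM, while the neighbours drawn stand at 12.3 FPKM or below.

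The 4 loci kept nearly fixed proportions to each other from animal to animal. ENSBTAG00000054051 over ENSBTAG00000052033, the first over the second locus of the cluster, was 1.16, 1.18, 1.18, 1.15 and 1.14 in libraries 1 to 5, and the SD of its log2 ratio was 0.022. ENSBTAG00000053974 over ENSBTAG00000052033 was 1.52, 1.50, 1.48, 1.56 and 1.46, with an SD of 0.039. ENSBTAG00000053974 over ENSBTAG00000054051 was 1.31, 1.27, 1.26, 1.36 and 1.28, with an SD of 0.044 that was 0.026 without library 4. These ratios thus moved far less between libraries than the levels, which moved by 1.72-fold to 1.84-fold between library 2 and library 4.

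The distant locus kept step with the cluster across the 178 kb between them. ENSBTAG00000052709 over ENSBTAG00000052033 was 1.03, 1.09, 1.10, 1.06 and 1.10 in libraries 1 to 5, with an SD of the log2 ratio of 0.042 that was 0.026 without library 1. ENSBTAG00000054051 over ENSBTAG00000052709 lay between 1.04 and 1.13, with an SD of 0.044 that was 0.029 without library 5. The loosest of the 6 pairs was ENSBTAG00000053974 over ENSBTAG00000052709, from 1.32 in library 5 to 1.48 in library 4, with an SD of 0.074. Set against the mean log2 level of the cluster, the distant locus stood at -0.17 ± 0.05 (log2 scale, SD, n = 5) and below it in 5 of 5 libraries. Each of the 6 pairs had the same order in 5 of 5 libraries, so neighbours in the order of levels that overlap by their SD over animals, such as ENSBTAG00000052709 and ENSBTAG00000052033, were still ordered the same way within every animal.

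As shares of their own sum, ENSBTAG00000053974 held between 31.0% and 32.8% in the 5 libraries, ENSBTAG00000054051 between 24.2% and 24.8%, ENSBTAG00000052709 between 21.8% and 23.4%, and ENSBTAG00000052033 between 20.9% and 21.3%. For scale, all pairs of the 216 genes with a mean of at least 100 FPKM were taken. The SD of the log2 ratio over the 5 libraries ran from 0.022 to 0.074 for the 6 pairs of loci, and its median was 0.36 for the 23214 other pairs. Of those other pairs, 129 (0.556%) had an SD below 0.074. Between a locus and a gene of at least 100 FPKM outside the 4, the median SD was 0.53 and the lowest 0.094. Genes of lower level came closer, such as KMT2E at 0.053 to ENSBTAG00000054051, below the loosest pair of loci. Pairs share genes and libraries and are not independent, so these are descriptions and carry no test.

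**Figure D3:**
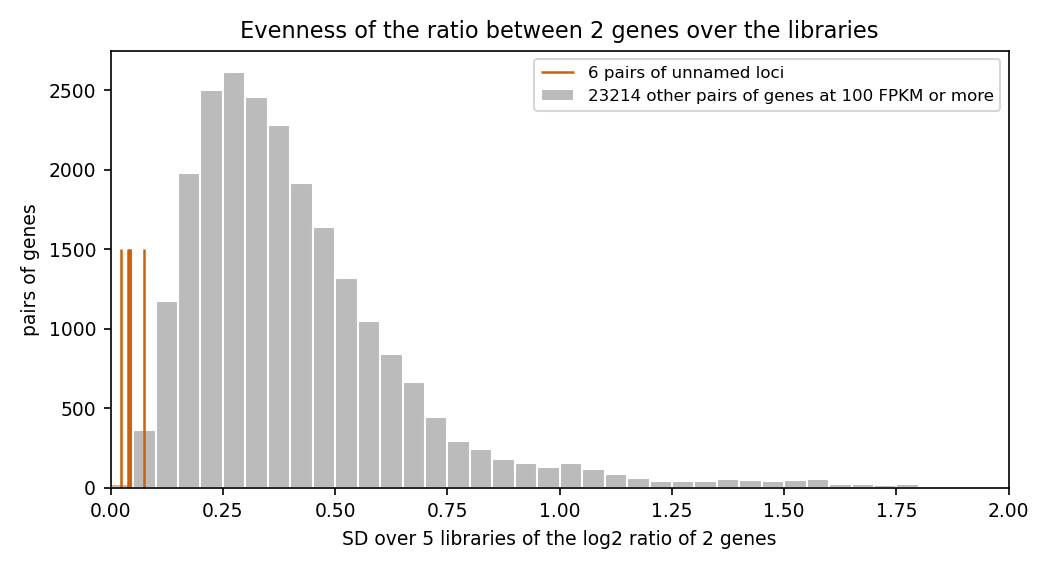
SD over the 5 libraries of the log2 ratio between 2 genes (x axis) for 23214 pairs of genes at 100 FPKM or more (grey histogram, number of pairs on the y axis; 3 pairs at 2 or more are not drawn). Vertical lines mark the 6 pairs of the 4 loci, whose height has no meaning; they stand between 0.022 and 0.074, at the low end of the histogram.

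Together the 4 loci differed 1.79-fold between library 2 and library 4, and 1.42-fold between the highest and lowest library with library 4 left out. They summed to 27352, 32319, 22801, 18065 and 27128 FPKM in libraries 1 to 5, averaging 25533 ± 5365 (SD, n = 5). Libraries 1 and 5 lay close together, library 3 below them, and at 0 of the 4 loci did a library stand apart by Dixon's gap ratio, as happened for 6.76% of detected genes. All 4 loci were highest in library 2 and lowest in library 4, as were 373 of 6136 detected genes (6.08%) and 14 of the 216 genes of at least 100 FPKM (6.48%), the 4 loci included. The full order of libraries 2, 1, 5, 3 and 4 was shown by 3 of the 4, against 1.4% of detected genes, and ENSBTAG00000052709 differed from it by having library 5 above library 1. Since the 4 loci vary as a block, and the order was read off them, their agreement counts as 1 observation and not as 4.

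The deviation of a locus from its own mean, on the log2(FPKM + 1) scale, lay between 0.36 and 0.38 in library 2 and between -0.50 and -0.43 in library 4. In library 1 it lay between 0.08 and 0.15, in library 5 between 0.08 and 0.16, and in library 3 between -0.16 and -0.11. The SD over libraries was 0.30 to 0.33 for the 4, against a median of 0.25 for all detected genes. The median of the 4 was greater than the SD of 66.5% of detected genes. That share depended on the settings. It was 43.2% without library 4 and 75.8% without library 1. It was 54.95% with a pseudocount of 0.1 in place of 1, 75.3% with a detection limit of 10 FPKM and 68.7% with median-ratio size factors. After each library had been rescaled to a common total (TPM) it was 56.7%, with the pseudocount and the detection limit kept at 1 on a larger scale of values.

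The loci held a large and uneven part of each library. Their share of the summed FPKM was 14.1%, 15.8%, 10.9%, 8.09% and 13.2% in libraries 1 to 5, averaging 12.4% ± 3.00 (SD, n = 5). The mitochondrially encoded genes, which supply core subunits of the respiratory chain, held 11.97%, 10.3%, 11.2%, 15.3% and 10.9% of libraries 1 to 5. The loci thus held more than these genes in libraries 1, 2 and 5 and less in libraries 3 and 4. With the mitochondrial genes left out of the library sum, the share of the loci was 17.7% in library 2 and 9.56% in library 4, a ratio of 1.85 in place of 1.956. Library sums without the 4 loci were 166354, 171861, 185704, 205186 and 178642 FPKM in libraries 1 to 5. Library 4, lowest for the loci, was highest for this sum, and the part of this in the result was not tested.

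**Figure D4:**
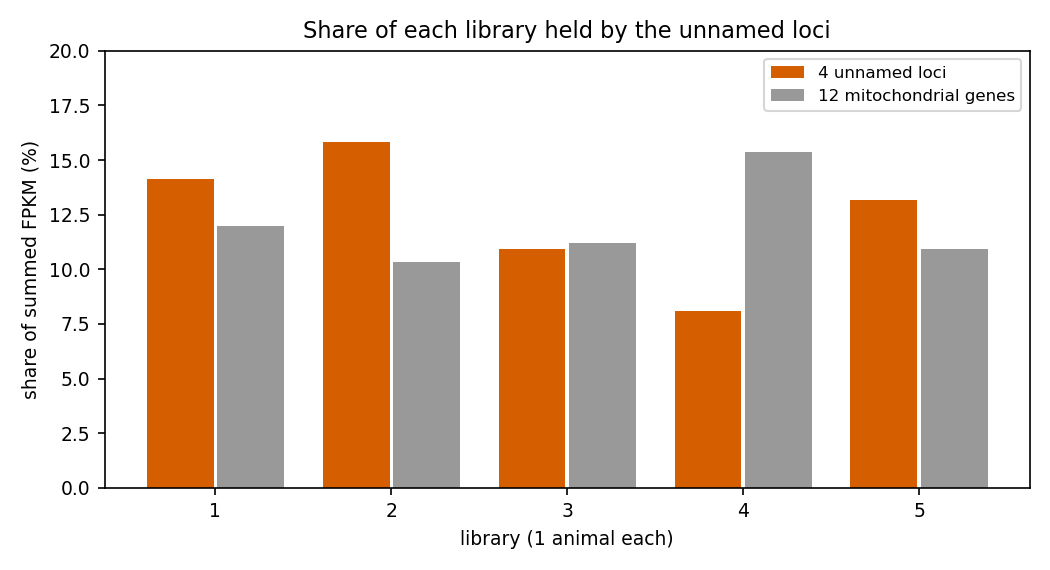
Share of the summed FPKM of each library (y axis, percent) held by the 4 loci and by the 12 mitochondrial genes of the table, for each of the 5 libraries (x axis). The loci hold 15.8% of library 2 and 8.09% of library 4, and the mitochondrial genes 10.3% and 15.3%.

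Genes of proteins that bind titin or share its sarcomere were split between library 2 and library 4, much as all detected genes were. The list of titin-binding and giant sarcomere genes had 38 symbols, of which 25 were listed and 23 detected. Of these 23, 12 (52.2%) were higher in library 2 than in library 4 and 11 lower, against 45.4% of all detected genes. All 4 loci were higher in library 2, but this pair of libraries was compared because they were the extremes of the loci. The direction at the loci was thus fixed by that choice and is no measure for the list. Rescaled to TPM, the split of the list was 15 higher and 8 lower, and 56.7% of all detected genes were higher. The median log2 difference of library 2 over library 4 was 0.86 for the loci, 0.04 for this list and -0.04 for all detected genes (log2 scale). Rescaling to TPM, which shifts the difference of every gene by nearly the same amount, gave 0.99, 0.19 and 0.07. For the last 2 of these the detection limit was applied to the rescaled values, so they cover more genes than the deposited medians. With the deposited values the only detected member with library 2 highest and library 4 lowest was CMYA5 (3 members with size factors), which encodes myospryn, a large muscle protein. It was at 26.4, 32.9, 25.5, 10.8 and 21.9 FPKM in libraries 1 to 5, and was named after its values had been seen.

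The abundant members of that list lay below the loci in mean level. FHL1, a LIM-domain protein gene, averaged 2909.9 ± 453 FPKM, and TCAP, whose product caps titin at the Z-disc, 2823 ± 586 (SD, n = 5). MYBPC1, the slow myosin-binding protein C gene, averaged 2631 ± 238 FPKM, NEB, the gene of the thin filament protein nebulin, 1518 ± 148, and MYOT, a Z-disc protein gene, 1224 ± 159 (SD, n = 5). Library 2 and library 4 differed little or the other way in them: TCAP had 2658 FPKM in library 2 against 3664 in library 4, FHL1 at 2603 and 3594, MYBPC1 at 2547 and 2798, NEB at 1623 and 1373, and MYOT at 1304 and 1164. The most variable members were FHL2, another LIM-domain gene that binds titin, at 13.6 ± 9.61 FPKM, and OBSL1, an M-band protein gene, at 10.3 ± 5.35 FPKM (SD, n = 5).

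Among thick and thin filament genes more were lower in library 2 than in library 4, the pair of libraries chosen from the extremes of the loci. Of 22 symbols 15 were listed and 14 detected. Of these 14, 3 were higher in library 2 than in library 4 and 11 lower, with a median log2 difference of -0.17. Over all detected genes 45.4% were higher in library 2. Rescaled to TPM the split of the 14 was 5 and 9, with 56.7% of all detected genes higher. The median under TPM was -0.048, taken over all 15 listed genes because the detection limit was applied after rescaling. The 3 higher in the deposited values were ACTA1, the skeletal actin gene, with 5476 FPKM in library 2 against 4749 in library 4, TNNI1, the slow troponin I gene, with 813 and 569, and TNNT3, the fast troponin T gene, with 2178 and 2169.98. TPM2, the beta-tropomyosin gene, had 4087 FPKM in library 2 against 4619.5 in library 4, TNNC1, the slow troponin C gene, at 3564 and 5101, MYH7, the slow myosin heavy chain gene, at 3199 and 3558, and MYLPF, the fast regulatory light chain gene, at 2499 and 3342. The list's most variable detected members were MYL2, the slow regulatory light chain gene, at 481 ± 177 FPKM, and TPM1, the alpha-tropomyosin gene, at 11.8 ± 2.71 FPKM (SD, n = 5).

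The summed FPKM of the loci was 1.04, 1.19, 0.773, 0.588 and 0.968 times that of the listed filament genes in libraries 1 to 5. The loci were the larger sum in libraries 1 and 2 and the smaller in libraries 3, 4 and 5. In bulk tissue, fewer muscle fibres and less of a transcript per fibre cannot be told apart. The sum of the filament genes was 27262 FPKM in library 2 and 30712 in library 4, and the part of the mix of fibres in the level of the loci was not tested.

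**Figure D5:**
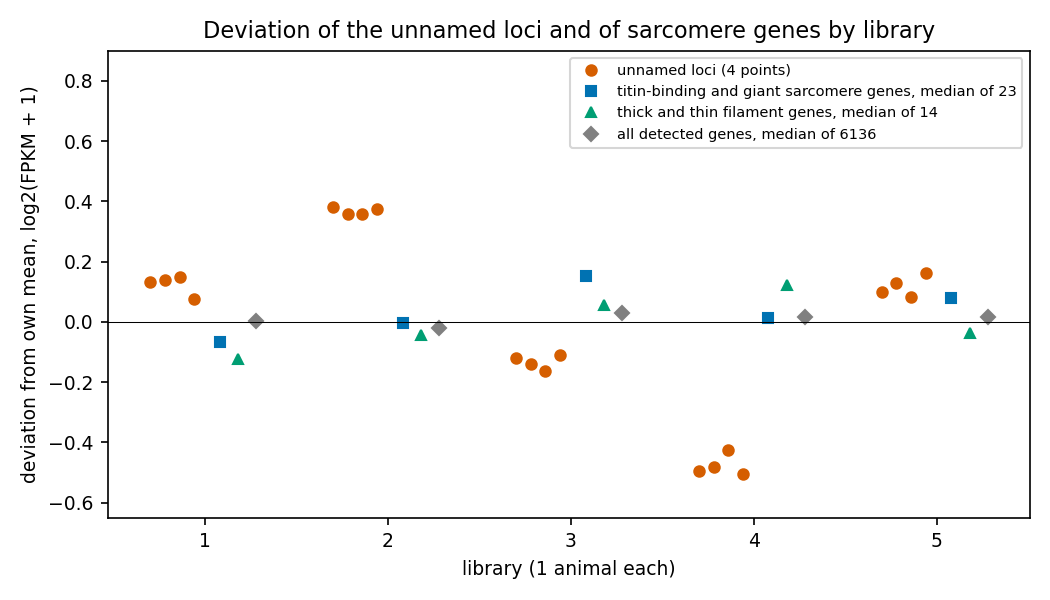
Deviation from the mean over the 5 libraries on the log2(FPKM + 1) scale (y axis) by library (x axis), with a point for each of the 4 loci and the medians of 23 titin-binding and giant sarcomere genes, 14 thick and thin filament genes and all 6136 detected genes. The loci stand between 0.36 and 0.38 in library 2 and between -0.50 and -0.43 in library 4, where the filament median is above 0.

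The genes whose levels ran most closely parallel to the sum of the loci were mostly long genes of varied function. Likeness was the SD over the 5 libraries of the log2 ratio of a gene to the summed loci, among 2168 other genes with a mean of at least 10 FPKM, where a small SD means a near-constant ratio. The closest was KMT2E, a chromatin regulator gene, at 0.064, followed by CTNNA3, the alpha-T-catenin gene of cell adhesion, at 0.074, and SSH2, a phosphatase gene that acts on the actin-severing protein cofilin, at 0.081. KMT2E was at 18.7, 21.1, 15.1, 10.6 and 17.6 FPKM in libraries 1 to 5 and CTNNA3 at 25.9, 31.7, 23.4, 19.3 and 28.1 FPKM. Both were highest in library 2 and lowest in library 4.

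The remaining 7 of the 10 closest had SDs up to 0.114, against a median of 0.41 over the genes searched. They were PCBP2, which encodes an RNA-binding protein, GOLGA4, a Golgi protein gene, UACA, a gene of an ankyrin-repeat protein, CCAR1, a transcriptional coactivator gene, RYR1, the calcium release channel of the sarcoplasmic reticulum, and 2 genes without a symbol on other chromosomes. The loci themselves had SDs of 0.012 to 0.042 to their own sum. With single libraries left out, only KMT2E and CTNNA3 stayed among the 10 closest in 5 of 5 cases, and between 2 and 5 of the 10 stayed in each.

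Taken singly, each locus of the cluster had the other 3 loci as its 3 closest genes. KMT2E and CTNNA3 came next for ENSBTAG00000054051, at 0.053 and 0.086, and for ENSBTAG00000052033, at 0.058 and 0.079. CTNNA3 and SSH2 came next for ENSBTAG00000053974, at 0.078 and 0.084. For ENSBTAG00000052709 the other loci took places 1, 2 and 4, a gene without a symbol on chromosome X place 3 at 0.070, and CTNNA3 place 5 at 0.075.

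The 10 closest genes covered a median of 119 kb of the genome, against 30.1 kb for all genes searched. Over all detected genes other than the loci, the median log2 difference of library 2 over library 4 was 0.11 for the 1224 genes spanning at least 100 kb, -0.05 for the 3440 spanning 10 to 100 kb and -0.18 for the 1468 spanning less than 10 kb. Library 2 was thus the higher of the pair in 60.9% of the longest and 36.7% of the shortest genes. The part of gene span, and of anything that moves with it, in the difference at the 4 loci was not tested. The listed intervals of the loci are themselves under 5 kb, inside the long interval of TTN.

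The tissue carried the markers of its label. Of 9 skeletal muscle markers 8 were listed and all 8 were detected, with summed levels between 18567 and 21944 FPKM. The sum was carried by ACTA1, TNNC1, MYH7, MYBPC1, MYLPF and TNNT3. MB, the myoglobin gene, ran from 106 FPKM in library 1 to 766 in library 5. CKM, the muscle creatine kinase gene, averaged only 16.2 FPKM, from 35.5 in library 1 to 2.50 in library 5. Of 6 cardiac markers, MYH6 and MYL4 were listed, with sums of 27.0 to 42.6 FPKM. Listed markers of fibroblasts (3 of 6) summed to between 394 and 845 FPKM, of endothelium (5 of 5) to between 77.9 and 90.3, and of smooth muscle and pericytes (4 of 5) to between 22.96 and 60.4. Leukocyte (2 of 5), erythrocyte (1 of 3) and adipocyte (1 of 5) markers stayed under 4 FPKM in every library. Fibroblast markers were lowest in library 2, at 394 FPKM, and stood at 769 FPKM in library 4, the reverse of the loci, while they were highest in library 1, where the loci were also above their mean. The part of the mix of cells in the difference at the loci was not tested.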

How the data were processed

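RNA of 5 longissimus dorsi muscles was sequenced, 1 library per animal, per the labels' protocols. The authors deposited FPKM per transcript and library, per the file headers, so values are already scaled by transcript length and library size. The submitters' processing notes name UMD 3.1, HTSeq 0.6.0 and DESeq2 1.10.1 without their roles. Which aligner, FPKM estimator and annotation were used is not given in the sources used here. By symbol, 360 of 362 genes of chromosome 2 overlapped their place in the RefSeq table of ARS-UCD2.0, although the notes name UMD 3.1. The placing of the loci inside TTN rests on that match. Coordinates are printed as deposited with no build claimed.

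The 13391 transcripts were summed to 9022 genes, and log2(FPKM + 1) was used, with genes called detected from an average of 1 FPKM. Summing FPKM over transcripts, and estimating it for short loci inside a long gene, can change levels. Depth is unknown, so no counting interval was computed. A library was called apart when Dixon's gap ratio exceeded 0.71. Python 3.11.15, numpy 2.4.6, pandas 2.3.3 and matplotlib 3.10.9 were used, and the calculations were checked on simulated data. With 1 group and loci chosen by level, no test was made.

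Members and gene lists were chosen with earlier results of these data known. Named were the 4 loci, detected neighbours, the 5 highest and 2 most variable members of each list, the 10 genes closest to the summed loci, the 5 closest to each locus, and the 3 genes next below the threshold. PLEKHA3 was added as the nearest of the neighbours looked for. Alternatives were each library left out, rescaling to TPM, size factors, the most abundant transcript per gene, a pseudocount of 0.1, other thresholds and detection limits, and no mitochondrial genes. No sequence is printed, and 0 sample columns were unmapped.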

Additional observations from a re-analysis of the deposited data

Results flagged for a closer look

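Of 107 values checked, 6 had a library far from the others, by a gap ratio above the limit of 0.71 that 415 of all detected genes (6.76%) also exceeded. The sum of the mitochondrially encoded genes was 34265 FPKM in library 4 and between 21094 and 23374 FPKM in the other 4 libraries, a gap ratio of 0.827. The neighbouring gene OSBPL6 was at 7.62 FPKM in library 4 and between 10.6 and 10.8 FPKM in the others, a gap ratio of 0.932. The other 4 were single genes high in 1 library each: TPM3 at 2390 FPKM in library 3 (gap ratio 0.792), CAPN3 at 10.3 FPKM in library 5 (0.862), and the marker genes MB at 766 FPKM in library 5 (0.836) and MYH11 at 7.82 FPKM in library 1 (0.937). Chance flags about 1 in 20 groups.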

How the results depend on the processing

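The number of loci chosen stayed at 4 with thresholds of 500 and 2000 FPKM, with 1000 FPKM required in every library, and under each rescaling. The lowest of their means was 5389 FPKM and the next gene without a symbol on chromosome 2 was at 96.9 FPKM. This count therefore had little room to change, and their place inside TTN was not varied. Of 232 recomputed values 18 moved beyond the spread set for them. Some of the 232 could not move by construction, such as the number of listed transcripts, or the ratios between loci when a library is rescaled. The count of 18 is therefore no measure of how robust the results are. The median SD of the loci was 0.20 to 0.37 over the 5 runs without 1 library, lowest without library 4, and the highest over lowest library was 1.42 to 1.79. Rescaling to TPM, which by its construction multiplies all values of a library alike, gave a summed level of 124319.9. With the detection limit applied to the rescaled values, the median log2 difference of library 2 over library 4 was 0.07 for detected genes. It was 0.19 for the titin-binding list and -0.048 for the filament list, with the loci at 0.99. More genes passed that limit than with FPKM, so these medians are not over the same genes as the deposited ones. The list of closest genes was the weakest result: of 10 genes, 2 to 5 stayed with single libraries left out. It kept 3 under TPM, 5 with the most abundant transcript per gene and 9 with size factors. Under TPM the minimum mean of 10 was applied to the rescaled values, so a wider set of genes was searched. The cause in the other runs was not tested. Depth is unknown, so counting error could not be given. No paired analysis was possible because there was 1 group.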
